A study of Mus musculus with 9 samples.

Results

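The transcription factors that build innate lymphoid cells (ILCs) and keep them in their lineages were described here across sorted mouse skin cells. The list names 10 genes: Gata3, Rora, Id2, Bcl11b, Tcf7, Ets1, Zbtb16, Nfil3, Tox and Pparg. Members were the probe sets that the array's platform annotation assigns to these symbols alone. Of the 10 genes 9 had such a probe set, 1 each, among 24922 on the array. Tcf7 was not analysed here. All 9 lay above the filter on dim probe sets.

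Expression was measured on 9 one-colour Affymetrix arrays, 1 per sorted sample. The mice were female B6 animals of unstated age, and every group, controls included, carried an EGFP insertion in a single copy of Ccr10, by which GFP reports the skin-homing receptor CCR10. CD45.2+ CD3- cells without the other excluded lineage antigens were sorted as GFP+ or GFP-, with no positive ILC marker named in the gate. CCR10+/EGFP mice (called Rag1-sufficient) gave 2 GFP+ and 2 GFP- samples, and Rag1-/-CCR10+/EGFP mice, which cannot form T and B cell receptors, gave 2 GFP+ and 3 GFP- samples. Nothing in the labels says that replicates came from separate animals or pools, so a p-value reflects the spread among samples alone, which could be technical.

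ILCs are tissue lymphocytes without antigen receptors. In the textbook view Id2 blocks the E proteins that would direct a progenitor towards T or B cells, and Nfil3, Tox, Ets1 and Tcf7 act in the early progenitors. Zbtb16, which encodes PLZF, is switched on transiently in committed ILC precursors and is also known from innate-like T cells. Gata3, Rora and Bcl11b then direct and hold the ILC2 fate, the main source of type 2 cytokines in tissue, and Pparg, a lipid-sensing nuclear receptor, supports ILC2 function. The series asked how CCR10+ and CCR10- skin ILCs differ, and the comparisons below ask whether these regulators differ between the fractions and between genotypes.

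Pparg and Gata3 were the members with the lowest fitted values in CCR10+ relative to CCR10- cells of Rag1-sufficient mice, so the windows around their annotated gene starts are shown, as RefSeq gives them for mouse build GRCm38.p6. Each holds 250 bases before and 50 after a start, 5′ to 3′ on the strand of the gene. Capitals mark matches, on either strand, to 4 motifs that members or their partners are known to bind. These were AGATAA for GATA factors, the E-box CANNTG for the E proteins that Id2 holds off, the half-site AGGTCA for nuclear receptors such as RORA and PPARG, and TTATGTAA for NFIL3. Windows were found for 7 of the 10 genes, and Pparg has 3.
Gata3, chr2:9878551-9878850, minus strand: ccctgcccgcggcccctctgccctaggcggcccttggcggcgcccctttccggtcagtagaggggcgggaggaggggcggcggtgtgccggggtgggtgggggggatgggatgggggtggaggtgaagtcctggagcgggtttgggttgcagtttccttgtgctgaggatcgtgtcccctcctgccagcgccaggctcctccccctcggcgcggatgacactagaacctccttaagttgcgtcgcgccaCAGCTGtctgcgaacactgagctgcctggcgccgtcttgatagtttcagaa
Pparg start 1, chr6:115360894-115361193, plus strand: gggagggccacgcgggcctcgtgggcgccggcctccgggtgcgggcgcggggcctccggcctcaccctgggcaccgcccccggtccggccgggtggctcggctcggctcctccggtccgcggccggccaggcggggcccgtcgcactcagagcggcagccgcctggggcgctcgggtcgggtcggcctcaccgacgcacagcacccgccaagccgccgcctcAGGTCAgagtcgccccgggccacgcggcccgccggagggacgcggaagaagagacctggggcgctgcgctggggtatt
Pparg start 2, chr6:115362099-115362398, plus strand: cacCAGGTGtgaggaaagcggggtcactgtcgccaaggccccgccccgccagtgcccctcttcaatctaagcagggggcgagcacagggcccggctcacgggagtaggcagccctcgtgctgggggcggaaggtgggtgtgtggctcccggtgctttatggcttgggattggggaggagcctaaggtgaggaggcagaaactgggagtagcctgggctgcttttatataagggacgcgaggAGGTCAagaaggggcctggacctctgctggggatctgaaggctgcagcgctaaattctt
Pparg start 3, chr6:115421816-115422115, plus strand: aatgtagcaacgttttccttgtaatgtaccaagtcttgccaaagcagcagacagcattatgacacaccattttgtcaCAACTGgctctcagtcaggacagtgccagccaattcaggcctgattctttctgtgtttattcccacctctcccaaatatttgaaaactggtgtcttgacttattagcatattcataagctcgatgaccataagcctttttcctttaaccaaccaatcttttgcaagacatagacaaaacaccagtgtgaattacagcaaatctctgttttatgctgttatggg
The Gata3 window held 1 E-box. Pparg start 1 held 1 nuclear receptor half-site, start 2 held 1 half-site and 1 E-box, and start 3 held 1 E-box. No 2 matches overlapped. Of all 32851 windows of this length 72.3% held an E-box, 16.3% the half-site, 11.2% the GATA motif and 0.938% the NFIL3 motif. A match is a run of letters and not a shown binding site. The single Pparg probe set does not tell transcripts of these starts apart.

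Array medians lay between 74.1 and 77.6 intensity units. Rank correlations over all probe sets were 0.981 to 0.992 within groups and 0.975 to 0.993 between groups, ranges that overlapped. Such correlations can hide differences in part of the genes. All 6 genes listed as ILC markers (Id2, Il7r, Gata3, Thy1, Ptprc and Rora) lay above the filter level of 41.8 units on all 9 arrays. Id2, Gata3 and Rora are members described here, so these readings are no independent check of what the cells are. The mast cell marker list moved with the groups. Its 14 genes summed to 1079 to 1202 units in Rag1-sufficient GFP+, 10901 to 11100 in Rag1-sufficient GFP-, 5119 and 1551 in Rag1-/- GFP+ (replicates 1 and 2), and 5031 to 6384 in Rag1-/- GFP- samples. All 14 lay above the filter level in Rag1-sufficient GFP- samples, against 6 or 7 in Rag1-sufficient GFP+, 12 and 6 in Rag1-/- GFP+, and 11 or 12 in Rag1-/- GFP- samples. The mast cell protease Cpa3 read 20.3 and 21.5 in Rag1-sufficient GFP+ samples and 4932 and 4965 in GFP- samples. The 12 T cell markers with a probe set summed to 3416 to 4001, 2690 to 2698, 4133 to 7561 and 5233 to 7781 units in the same order of groups. In sorted bulk samples fewer cells of a type and less RNA per cell cannot be told apart.

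**Figure D1:**
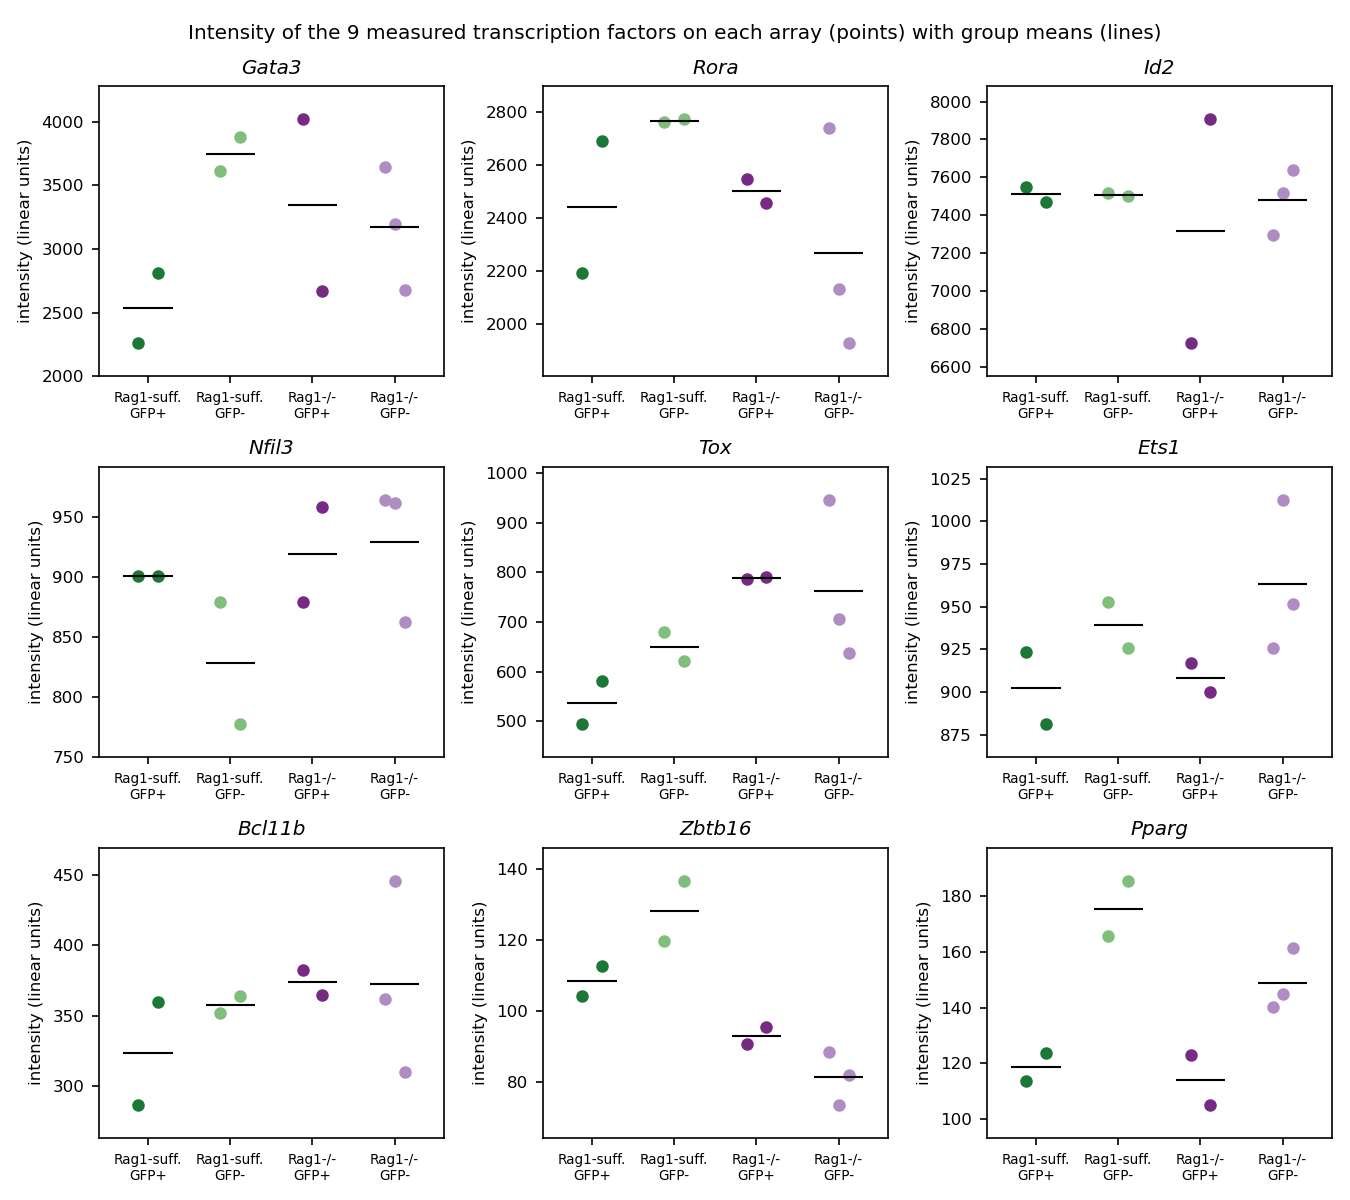
Intensity (y axis, linear units, a separate axis range per gene) of the 9 measured transcription factors on each of the 9 arrays (points), by group, with group means as lines. Pparg lay between 105 and 124 on all 4 GFP+ arrays and between 140.2 and 185 on all 5 GFP- arrays, and Zbtb16 between 73.6 and 95.5 on the 5 Rag1-/- arrays and between 104 and 137 on the 4 Rag1-sufficient arrays.

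No member passed the threshold of an adjusted p of 0.05 in any of 7 comparisons in the limma fit. Levels below are linear intensities, and fitted differences are log2 values with their SE. Between CCR10+ and CCR10- cells of Rag1-sufficient mice 0 of 9 members passed, against 0.797% of all 17445 tested probe sets. An unadjusted p under 0.05 was reached by 2 of 9 members and 13% of all sets. The other shares of all sets past the adjusted threshold were 0% for the gate in Rag1-/- mice, 0.246% for Rag1 loss in GFP+ cells and 0.143% for Rag1 loss in GFP- cells. They were 0.212% for the gate averaged over genotypes, 0.0803% for Rag1 loss averaged over fractions and 0% for the interaction. At an unadjusted p under 0.05 the members numbered 1 in the gate comparison of Rag1-/- mice (6.29% of all sets), 1 for Rag1 loss in GFP+ (6.81%) and 1 in GFP- cells (17.3%). They numbered 1 for the averaged gate (7.36%), 2 for averaged Rag1 loss (9.83%) and 1 for the interaction (13.6%).

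**Figure D2:**
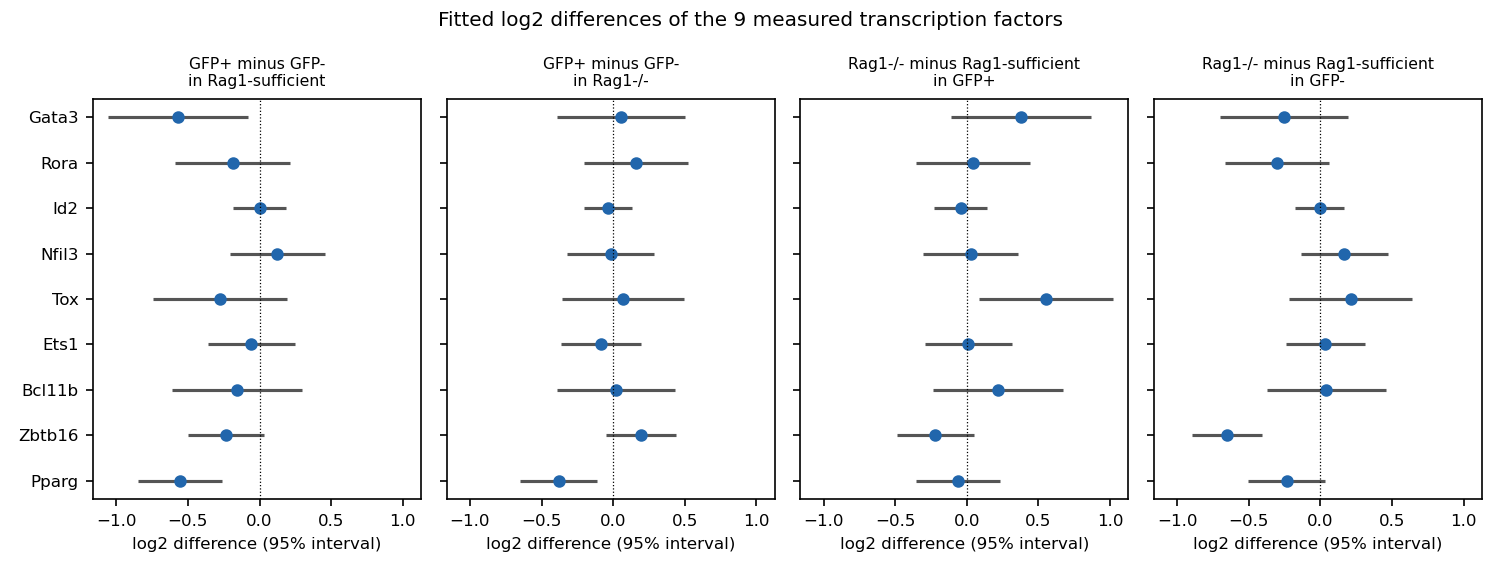
Fitted log2 differences (x axis) of the 9 measured transcription factors in 4 comparisons, points with 95% confidence intervals that are not adjusted for the number of genes. Intervals that leave out 0 were those of Pparg and Gata3 for the gate in Rag1-sufficient mice, Pparg for the gate in Rag1-/- mice, Tox for Rag1 loss in GFP+ cells and Zbtb16 for Rag1 loss in GFP- cells.

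Among the ILC2 regulators, Gata3, the zinc finger factor that ILC2s depend on, had the lowest group mean in CCR10+ cells of Rag1-sufficient mice. It read 2263 and 2813 in Rag1-sufficient GFP+ samples, 3614 and 3881 in Rag1-sufficient GFP- samples, 4017 and 2670 in Rag1-/- GFP+ samples and 3643, 3194 and 2677 in Rag1-/- GFP- samples. Both Rag1-sufficient GFP+ arrays lay below both GFP- arrays, while in Rag1-/- mice replicate 1 of the GFP+ samples was the highest of all 9 arrays and replicate 2 the lowest of that genotype. The gate difference of Gata3 was -0.57 ± 0.21 (adjusted p = 0.306) in Rag1-sufficient mice, with a 95% interval of -1.06 to -0.081. With array weights, which give less weight to arrays that fit the model poorly, its adjusted p was 0.0431, in a fit that took the count of all sets past the threshold from 139 to 1293.

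In Rag1-/- mice the gate difference of Gata3 was 0.058 ± 0.20 (adjusted p = 0.933), and it took its sign from single arrays. It was -0.24 without GFP+ replicate 1 and 0.35 without GFP+ replicate 2. GFP+ replicate 1, with Gata3 at 4017, had a mast cell marker sum of 5119 units, and replicate 2, with Gata3 at 2670, a sum of 1551, so Gata3 and the mast cell markers stood higher in the same array of this pair and higher in the same fraction of Rag1-sufficient mice. Other arrays did not keep this order. Rag1-/- GFP- replicate 3 had a mast cell marker sum of 5031 units and Gata3 at 2677. The Rag1-sufficient GFP- arrays had sums of 10901 and 11100 units and Gata3 at 3614 and 3881, below the 4017 of Rag1-/- GFP+ replicate 1. The part of the mast cell markers in the Gata3 differences was not tested. The gate effects of the genotypes differed by 0.63 ± 0.29 (adjusted p = 0.385) for Gata3. With Rag1 loss the Gata3 difference was 0.38 ± 0.21 (adjusted p = 0.815) in GFP+ and -0.25 ± 0.20 (adjusted p = 0.520) in GFP- cells. With 1 array left out the first of these ran from 0.081 to 0.67, the second from -0.36 to -0.13 and the difference between the genotypes' gate effects from 0.33 to 0.92.

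The Gata3 group means ran from 2538 ± 389 (SD, n = 2) in Rag1-sufficient GFP+ through 3171 ± 483 (SD, n = 3) in Rag1-/- GFP- and 3343 ± 953 (SD, n = 2) in Rag1-/- GFP+ to 3748 ± 189 (SD, n = 2) in Rag1-sufficient GFP- cells. The fractions of Rag1-/- mice, neighbours in this order, overlapped.

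Rora, which encodes the nuclear receptor RORα needed for ILC2 development, read 2192 and 2690 in Rag1-sufficient GFP+, 2763 and 2772 in Rag1-sufficient GFP-, 2547 and 2455 in Rag1-/- GFP+ and 2740, 2132 and 1929 in Rag1-/- GFP- samples. The lowest arrays were Rag1-/- GFP- replicates 3 and 2, while replicate 1 of that group was close to the highest. Its gate difference was -0.19 ± 0.17 (adjusted p = 0.766) in the Rag1-sufficient genotype and 0.16 ± 0.16 (adjusted p = 0.764) in Rag1-/- mice. With Rag1 loss it was 0.042 ± 0.17 (adjusted p = 0.990) in GFP+ and -0.30 ± 0.16 (adjusted p = 0.355) in GFP- cells, where all 3 Rag1-/- arrays lay below both Rag1-sufficient arrays. With 1 array left out the Rora gate difference ran from -0.34 to -0.041 in Rag1-sufficient and from 0.049 to 0.30 in Rag1-/- mice, and the difference with Rag1 loss in GFP- cells from -0.45 to -0.20.

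Bcl11b, a zinc finger factor that T cells and ILC2s both need to keep their identity, read 286 and 359.7 in Rag1-sufficient GFP+, 352 and 364 in Rag1-sufficient GFP-, 382 and 365 in Rag1-/- GFP+ and 362, 445 and 309.8 in Rag1-/- GFP- samples. The lowest and the highest array differed by a factor of 1.55, and the 3 Rag1-/- GFP- arrays alone covered most of that range. No Bcl11b difference exceeded 0.22 in size in the 4 comparisons, the largest being 0.22 ± 0.20 (adjusted p = 0.909) for Rag1 loss in GFP+ cells, or 0.054 to 0.38 with 1 array left out. The T cell marker sums, which were highest in Rag1-/- GFP- replicate 3 (7781) and Rag1-/- GFP+ replicate 2 (7561), stood beside Bcl11b readings of 309.8 and 365, of which the first was the second lowest of all arrays. The lowest sums, 2690 and 2698 in the Rag1-sufficient GFP- samples, stood beside Bcl11b readings of 364 and 352. The part of T cell markers in the Bcl11b readings was not tested.

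The factors of the early progenitors comprised Id2, Ets1 and Nfil3, whose group means lay close together, and Tox and Zbtb16, whose means lay further apart. Id2 read 7548 and 7472 in Rag1-sufficient GFP+, 7515 and 7503 in Rag1-sufficient GFP-, 6727 and 7905 in Rag1-/- GFP+ and 7295, 7515 and 7639 in Rag1-/- GFP- samples. The 4 Rag1-sufficient arrays lay between 7472 and 7548, and the lowest and the highest value were the 2 Rag1-/- GFP+ replicates. Its 4 group means spanned 0.042 on the log2 scale, a range that 1.15% of tested sets fell below, against a median of 0.26 over all tested sets. The 95% intervals of its 4 differences lay within -0.23 and 0.19. Quantile normalization put the Rag1-sufficient gate difference of Id2 at -0.19 (adjusted p = 0.143) instead of 0.00022.

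Ets1, an ETS-family factor of lymphocyte development, read 923 and 881 in Rag1-sufficient GFP+, 953 and 926 in Rag1-sufficient GFP-, 917 and 899.8 in Rag1-/- GFP+ and 926, 1012 and 952 in Rag1-/- GFP- samples. All 4 GFP+ arrays lay below all 5 GFP- arrays, with a narrow gap between 923 and 926. The averaged gate difference was -0.071 ± 0.090 (adjusted p = 0.902). In Rag1-/- mice the gate difference of Ets1 was -0.083 ± 0.12 (adjusted p = 0.835), and under quantile normalization its direction turned, to 0.065. The intervals of its 4 differences lay within -0.36 and 0.31. Nfil3, a basic leucine zipper factor that ILC progenitors need, read 900.1 and 900.1 in Rag1-sufficient GFP+, 879 and 777 in Rag1-sufficient GFP-, 879 and 958 in Rag1-/- GFP+ and 963, 962 and 862 in Rag1-/- GFP- samples. The equal values of the Rag1-sufficient GFP+ pair are identical in the deposited table, as are those of 5.47% of all probe sets in this pair. The Nfil3 differences lay between -0.016 and 0.17, with intervals within -0.32 and 0.47.

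Tox, an HMG-box factor required early in ILC development, had its highest group mean in Rag1-/- and its lowest in Rag1-sufficient CCR10+ cells. It read 495 and 580.1 in Rag1-sufficient GFP+, 679.7 and 621 in Rag1-sufficient GFP-, 786 and 791 in Rag1-/- GFP+ and 945, 707 and 637 in Rag1-/- GFP- samples. The GFP+ arrays of the genotypes did not overlap, while among GFP- arrays Rag1-/- replicate 3 fell between the 2 Rag1-sufficient values. The difference with Rag1 loss was 0.56 ± 0.21 (adjusted p = 0.606) in GFP+ cells, with an interval of 0.089 to 1.02, and 0.21 ± 0.19 (adjusted p = 0.574) in GFP- cells, or 0.047 without Rag1-/- GFP- replicate 1. Averaged over the fractions it was 0.38 ± 0.14 (adjusted p = 0.410). In order of group means Tox ran from 537 ± 60.4 (SD, n = 2) in Rag1-sufficient GFP+ and 650.3 ± 41.6 (SD, n = 2) in Rag1-sufficient GFP- to 763 ± 162 (SD, n = 3) in Rag1-/- GFP- and 788 ± 3.24 (SD, n = 2) in Rag1-/- GFP+ cells. No Tox difference between neighbours in this order passed the threshold, and the gate differences were -0.28 ± 0.21 (adjusted p = 0.666) and 0.067 ± 0.19 (adjusted p = 0.914). With 1 array left out the first of these ran from -0.39 to -0.16. The T cell marker sums were also higher in Rag1-/- samples, 4133 to 7781 against 2690 to 4001 units. The largest readings in these sums were those of the CD3 chain Cd3g, 891 to 4859 units. For Rag1 loss in GFP+ cells 7 of 11 tested T cell markers had differences above 0 and 4 below. Rag1-/- mice cannot form T cell receptors and the cells were sorted as CD3-, so a marker sum is no count of T cells. The part of these markers in the Tox difference was not tested.

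Zbtb16 was the member with the widest range of group means, 0.65 on the log2 scale. It was also the dimmest member, with a mean above that of 58.8% of all probe sets, on arrays with medians of 74.1 to 77.6. How far Zbtb16 readings stand above background was not tested. It read 104 and 113 in Rag1-sufficient GFP+, 119.8 and 137 in Rag1-sufficient GFP-, 90.7 and 95.5 in Rag1-/- GFP+ and 88.5, 73.6 and 81.9 in Rag1-/- GFP- samples. All 5 Rag1-/- arrays lay below all 4 Rag1-sufficient arrays, and 1 of 9 members did so where 1.66% of all tested sets did. In GFP- cells the difference with Rag1 loss was -0.65 ± 0.11 (adjusted p = 0.0688), a 1.57-fold lower level with an interval of -0.89 to -0.41. Its rank by p in this comparison was 55 of 17445. The adjusted p was 0.0111 with array weights, which took the count of all sets from 25 to 1166, and 0.0449 without Rag1-/- GFP- replicate 1. In GFP+ cells the difference was -0.22 ± 0.12 (adjusted p = 0.793), and averaged over the fractions it was -0.43 ± 0.079 (adjusted p = 0.0854).

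The fitted gate differences of Zbtb16 had opposite signs in the genotypes, but neither they nor their difference passed the threshold. In Rag1-sufficient mice both GFP+ arrays lay below both GFP- arrays, with a difference of -0.24 ± 0.12 (adjusted p = 0.454). In Rag1-/- mice both GFP+ arrays lay above all 3 GFP- arrays, with a narrow gap between 88.5 and 90.7. The difference there was 0.20 ± 0.11 (adjusted p = 0.689). The gate effects differed by 0.43 ± 0.16 (adjusted p = 0.310), with an unadjusted p of 0.0241. Groups that did not overlap in opposite directions were found for 4.89% of all tested sets. The group means ran from 81.3 ± 7.46 (SD, n = 3) in Rag1-/- GFP- and 93.1 ± 3.39 (SD, n = 2) in Rag1-/- GFP+ to 109 ± 6.02 (SD, n = 2) in Rag1-sufficient GFP+ and 128 ± 11.9 (SD, n = 2) in Rag1-sufficient GFP- cells. No neighbours in this order differed past the threshold. The CD3 chain Cd3e read 233 and 157 and 270.3 and 238 in the Rag1-sufficient GFP+ and GFP- samples, and 763 and 1981 and 925, 765 and 942 in the Rag1-/- ones. All Rag1-/- arrays thus lay above all Rag1-sufficient arrays in Cd3e and below them in Zbtb16, but within Rag1-/- samples the array with the highest Cd3e also had the highest Zbtb16, and in Rag1-sufficient mice both were higher in GFP- samples. Of the 11 T cell markers tested, 8 had averaged Rag1 differences above 0 and 3 below, with a median of 0.32. The lowest was that of the costimulatory receptor Cd28, which read 234 and 312 in Rag1-sufficient GFP+, 209.6 and 263 in Rag1-sufficient GFP-, 101 and 142 in Rag1-/- GFP+ and 154, 68.3 and 126 in Rag1-/- GFP- samples. The averaged Rag1 differences of 6 of 7 keratinocyte markers were below 0, with a median of -0.73. For Rag1 loss in GFP- cells all 11 tested mast cell markers had differences below 0 (median -1.13), and in GFP+ cells all 11 lay above 0 (median 0.35). All 6 fibroblast and all 3 tested melanocyte markers also lay below 0 in GFP- cells. In GFP+ cells 4 of the 6 fibroblast and 0 of the 3 melanocyte markers lay above 0. The part of T cell, keratinocyte, mast cell, fibroblast or melanocyte markers in the Zbtb16 difference was not tested.

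Pparg was the member whose fractions separated in both genotypes by more than a narrow gap. After Zbtb16 it was the dimmest member, with a mean above that of 68.2% of all probe sets. It read 114 and 124 in Rag1-sufficient GFP+, 166 and 185 in Rag1-sufficient GFP-, 123 and 105 in Rag1-/- GFP+ and 140.2, 145 and 161 in Rag1-/- GFP- samples. All 4 GFP+ arrays lay below all 5 GFP- arrays. Pparg and Ets1, 2 of 9 members, showed this order, against 1.08% of all tested sets, and 2.95% separated the fractions in the same direction within both genotypes. The gate difference of Pparg was -0.56 ± 0.13 (adjusted p = 0.114) in Rag1-sufficient mice, with an interval of -0.85 to -0.27, and -0.38 ± 0.12 (adjusted p = 0.689) in Rag1-/- mice, with an interval of -0.65 to -0.11. Averaged over genotypes it was -0.47 ± 0.087 (adjusted p = 0.0977), a 1.38-fold lower level, and its rank by p was 93 of 17445. With array weights the Rag1-sufficient difference had an adjusted p of 0.0134.

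The difference between the genotypes in the gate effect of Pparg was 0.18 ± 0.17 (adjusted p = 0.675) and an interval of -0.22 to 0.57, or 0.065 to 0.29 with 1 array left out. With Rag1 loss Pparg differed by -0.059 ± 0.13 (adjusted p = 0.970) in GFP+ and -0.24 ± 0.12 (adjusted p = 0.335) in GFP- cells, where it ran from -0.32 to -0.16 with 1 array left out. The group means ran from 114 ± 12.7 (SD, n = 2) in Rag1-/- GFP+ and 119 ± 6.94 (SD, n = 2) in Rag1-sufficient GFP+ to 149 ± 11.1 (SD, n = 3) in Rag1-/- GFP- and 175 ± 13.9 (SD, n = 2) in Rag1-sufficient GFP- cells, and no neighbours compared in this order differed past the threshold. Of 5 markers of adipocytes, the best known site of Pparg, 3 lay above the filter level of 41.8 units on all 9 arrays. These were Plin1 (75.5 to 99.0), Cidec (69.6 to 91.2) and Retn (52.3 to 56.2). Adipoq lay between 15.7 and 21.3 and Lep between 21.0 and 25.8. The 5 summed to 262 to 265 units in Rag1-sufficient GFP+, 261 to 264 in Rag1-sufficient GFP-, 243 to 292 in Rag1-/- GFP+ and 241 to 246 in Rag1-/- GFP- samples. The mast cell marker sum was higher in GFP- than in GFP+ samples of Rag1-sufficient mice. Among the 2 Rag1-/- GFP+ arrays the one with the sum of 5119 units read 123 and that with 1551 read 105, both below every GFP- array. Other marker lists were also lower in GFP+ than in GFP- samples of Rag1-sufficient mice. In Rag1-sufficient mice 7 of 7 macrophage and dendritic markers had gate differences below 0 (median -0.56), as were 7 of 7 keratinocyte markers (median -0.66), and in Rag1-/- mice 5 of 7 (median -0.12) and 6 of 7 (median -0.15). The 9 macrophage and dendritic markers summed to 603 to 617 units in Rag1-sufficient GFP+, 774 to 837 in Rag1-sufficient GFP-, 662 to 717 in Rag1-/- GFP+ and 651 to 818 in Rag1-/- GFP- samples. Of these 9 markers, 7, 8, 5 to 7 and 7 lay above the filter level in the same order of groups. The dimmest, Adgre1, lay between 15.7 and 19.3 and Cd68 between 104 and 171 over all 9 arrays. The 7 keratinocyte markers summed to 1006 to 1049, 1227 to 2495, 634 to 693 and 657 to 1110 units in the same order. The part of the adipocyte, mast cell, macrophage and dendritic or keratinocyte markers in the Pparg difference was not tested.

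**Figure D3:**
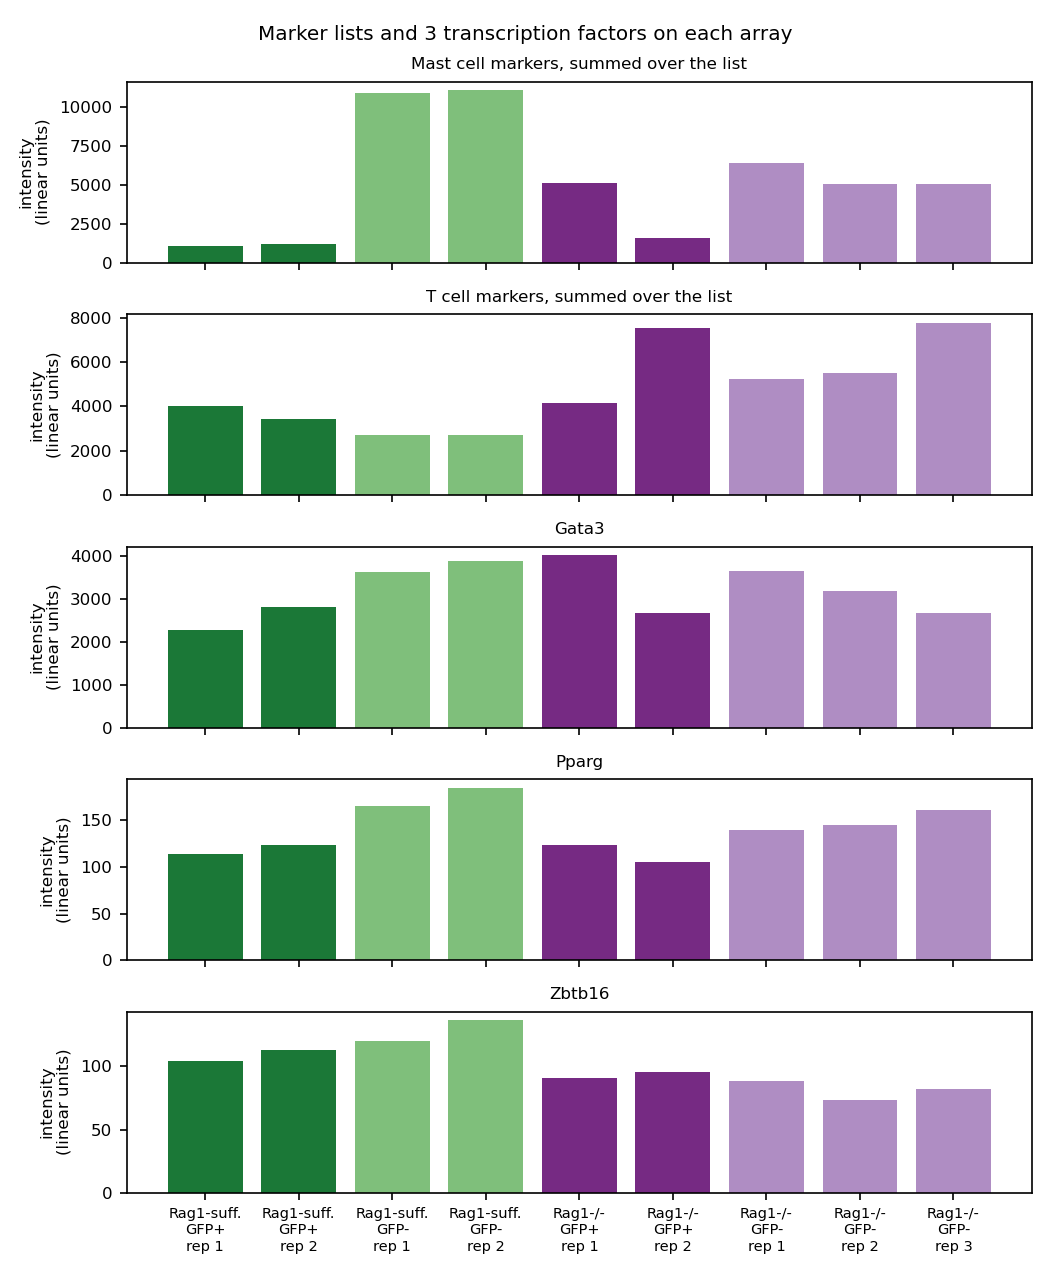
Summed intensity of the mast cell (14 genes) and T cell (12 genes) marker lists and the intensity of Gata3, Pparg and Zbtb16 (y axes, linear units from 0) on each of the 9 arrays (bars). The mast cell sum was 1079 to 1202 in Rag1-sufficient GFP+ and 10901 to 11100 in Rag1-sufficient GFP- samples, and Rag1-/- GFP+ replicates 1 and 2 differed in it (5119 and 1551) and in Gata3 (4017 and 2670).

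Counted over the members, 6 of 9 lay lower without overlap in CCR10+ cells of Rag1-sufficient mice (Gata3, Rora, Ets1, Zbtb16, Tox and Pparg), against 21.2% of all tested sets, and Nfil3 lay higher (29%). With 2 arrays in each of these groups such separation is weak evidence, and for Ets1 the gap lay between 923 and 926. Of the 6 only Gata3 and Pparg had 95% intervals that left out 0. The members were chosen with earlier results of these data known. In Rag1-/- mice 2 lay lower (Pparg and Ets1, the latter with a difference that turned above 0 under quantile normalization; 10.1% of all sets) and Zbtb16 higher (5.26%). The median of the members' gate differences was -0.19 in Rag1-sufficient mice, where that of all sets was 0.014, and 0.020 in Rag1-/- mice (all sets -0.0074). With Rag1 loss in GFP+ cells Bcl11b and Tox lay higher (11% of all sets) and Zbtb16 lower (18.4%). In GFP- cells Rora, Zbtb16 and Pparg lay lower (17.5% of all sets). The members' medians in these comparisons were 0.028 and -0.0052. The comparisons that share a group of arrays are not independent of one another.

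The wider network of lymphocyte transcription factors was read from a list of 63 others, of which 59 had a probe set and 57 were tested. In CCR10+ cells of Rag1-sufficient mice 1 of 57 fell and none rose, 18 (against 13% of all sets) had an unadjusted p under 0.05, and the 57 had a median of -0.16 against 0.014 over all sets. The one that fell was Gata2, a GATA factor of progenitors and mast cells, with a log2 difference of -1.46 ± 0.20 (adjusted p = 0.0184). It read 79.6 and 105 in GFP+ and 245 and 262 in GFP- samples, and it belongs to the mast cell list too. The Gata2 call was lost in small changes of the samples, with adjusted p values of 0.0965 to 0.187 when 1 of the 4 arrays compared was left out and 0.0521 without Rag1-/- GFP- replicate 2. With the replicate number as a block that of Gata2 was 0.0522, and with only the groups compared 0.0638. The next smallest p values were those of the Notch target Hes1 at -0.42 ± 0.083 (adjusted p = 0.0690), of Spi1, the myeloid factor PU.1, at -0.95 ± 0.20 (adjusted p = 0.0855), and of Bach2, a repressor of effector programmes, at -0.86 ± 0.20 (adjusted p = 0.114).

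In the other 6 comparisons none of the 57 factors passed in the limma fit, with an unadjusted p under 0.05 for 2 (against 6.29% of all sets) in the gate comparison of Rag1-/- mice, 6 (against 6.81% of all sets) for Rag1 loss in GFP+ cells and 14 (against 17.3% of all sets) in GFP- cells. There were 12 (against 7.36% of all sets) for the averaged gate, 10 (against 9.83% of all sets) for averaged Rag1 loss and 9 (against 13.6% of all sets) for the interaction. For the gate in Rag1-/- mice the smallest p values were those of Irf8 (-0.30 ± 0.11), Stat6 (-0.40 ± 0.17), the RUNX partner Cbfb (-0.38 ± 0.17) and Lef1 (0.40 ± 0.19), a relative of Tcf7, each with an adjusted p of 0.689. With Rag1 loss in GFP+ cells they were those of Myb at -0.70 ± 0.15 (adjusted p = 0.187), the cytokine signal transducer Stat5b at -0.38 ± 0.12 (adjusted p = 0.502), Bhlhe40 at 0.65 ± 0.21 (adjusted p = 0.529) and Klf4 at 0.58 ± 0.20 (adjusted p = 0.559). In GFP- cells they were those of Hes1 at -0.46 ± 0.076 (adjusted p = 0.0688), Gata2 at -0.97 ± 0.18 (adjusted p = 0.0913), Myb at -0.59 ± 0.13 (adjusted p = 0.130) and Nr4a1 at -0.54 ± 0.13 (adjusted p = 0.145).

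Myb, a factor of blood progenitors and proliferating lymphocytes, read 238 and 270.1 in Rag1-sufficient GFP+ and 239 and 214 in Rag1-sufficient GFP- samples, and 152 and 161 in Rag1-/- GFP+ and 170.3, 141 and 139 in Rag1-/- GFP- samples. As with Zbtb16, all 5 Rag1-/- values lay below all 4 Rag1-sufficient ones. Its averaged difference with Rag1 loss was -0.64 ± 0.099 (adjusted p = 0.0697), followed by Hes1 at -0.26 ± 0.056 (adjusted p = 0.136), Bcl11a at -0.30 ± 0.089 (adjusted p = 0.286) and Stat5a at -0.35 ± 0.11 (adjusted p = 0.299). For the averaged gate the smallest p values were those of Gata2 at -0.86 ± 0.14 (adjusted p = 0.0651), Spi1 at -0.57 ± 0.13 (adjusted p = 0.208), Hes1 at -0.22 ± 0.056 (adjusted p = 0.279) and Ets2 at -0.44 ± 0.13 (adjusted p = 0.365). For the interaction they were those of Gata2 at 1.20 ± 0.27 (adjusted p = 0.226), Hes1 at 0.41 ± 0.11 (adjusted p = 0.257), Bach2 at 0.96 ± 0.27 (adjusted p = 0.257) and Nr4a1 at 0.56 ± 0.19 (adjusted p = 0.290). The median of the 57 interaction differences was 0.33 (all sets -0.012), and that of the 9 members was 0.18.

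The receptors and cytokines of ILC2s, genes whose expression these factors are known to shape, were read from a list of 24, of which 21 were tested. In CCR10+ cells of Rag1-sufficient mice 1 fell, the stem cell factor receptor Kit, with a log2 difference of -1.38 ± 0.22 (adjusted p = 0.0304). Kit is also a mast cell gene, and its adjusted p was 0.156 to 0.261 when 1 of the 4 arrays compared was left out, and 0.0575 without Rag1-/- GFP- replicate 2. With the replicate block it was 0.0680, and with only the groups compared 0.0528. An unadjusted p under 0.05 was reached by 10 (against 13% of all sets) of the 21. Cd200r1, an inhibitory receptor, differed by -1.72 ± 0.34 (adjusted p = 0.0690). None of the 21 passed in the other comparisons in the limma fit. Those with an unadjusted p under 0.05 numbered 7 (against 6.29% of all sets) for the Rag1-/- gate, 6 (against 6.81% of all sets) and 5 (against 17.3% of all sets) for Rag1 loss in GFP+ and GFP- cells, 10 (against 7.36% of all sets) for the averaged gate, 6 (against 9.83% of all sets) for averaged Rag1 loss and 6 (against 13.6% of all sets) for the interaction. The smallest p values were those of Klrg1 at -1.17 ± 0.25 (adjusted p = 0.689) and Tnfrsf4 at -1.05 ± 0.24 (adjusted p = 0.689) for the gate in Rag1-/- mice, of the skin-homing receptor Ccr4 at -1.43 ± 0.23 (adjusted p = 0.0659) and Kit at 1.08 ± 0.22 (adjusted p = 0.166) for Rag1 loss in GFP+ cells, and of Tnfrsf4 at 1.50 ± 0.24 (adjusted p = 0.0663) and Il9r at 0.63 ± 0.19 (adjusted p = 0.191) in GFP- cells. For the averaged gate they were those of Klrg1 at -1.14 ± 0.18 (adjusted p = 0.0652) and Cd200r1 at -1.24 ± 0.23 (adjusted p = 0.0977), for averaged Rag1 loss those of Ccr4 at -0.98 ± 0.16 (adjusted p = 0.0698) and Tnfrsf4 at 1.10 ± 0.18 (adjusted p = 0.0737), and for the interaction those of Kit at 1.18 ± 0.30 (adjusted p = 0.250) and Il13 at -0.77 ± 0.26 (adjusted p = 0.290).

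Beside Pparg, 14 lipid genes of PPAR biology were tested out of 20 listed. In CCR10+ cells of Rag1-sufficient mice 1 fell, Pdk4, a kinase that turns cells from glucose to fat oxidation, with a log2 difference of -0.91 ± 0.16 (adjusted p = 0.0492). An unadjusted p under 0.05 was reached by 6 (against 13% of all sets) of the 14 for this gate and 4 (against 17.3% of all sets) for Rag1 loss in GFP- cells. Pdk4 also fell with Rag1 loss in GFP- cells, with a difference of -1.23 ± 0.15 (adjusted p = 0.0251). Pdk4 read 44.9 and 54.6 in Rag1-sufficient GFP+, 82.2 and 107 in Rag1-sufficient GFP-, 47.2 and 47.9 in Rag1-/- GFP+ and 34.3, 44.8 and 39.9 in Rag1-/- GFP- samples. The Rag1-sufficient GFP- arrays, which both comparisons share, stood above the rest. The first call had an adjusted p of 0.100 to 0.368 when 1 of the 4 arrays compared was left out. It was 0.0551 and 0.0556 without Rag1-/- GFP+ replicate 1 or 2 and 0.0723 and 0.0776 without Rag1-/- GFP- replicate 2 or 3, and it was also lost with no filter (0.0672), no intensity trend (0.0730) and only the groups compared (0.101). The second was at 0.336 without Rag1-sufficient GFP- replicate 2, at 0.0725 and 0.0967 without Rag1-/- GFP- replicate 2 or 3, and at 0.0758 with only the groups compared.

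Scd1, a desaturase that sebaceous and epidermal cells make in large amounts, differed by -3.42 ± 0.67 (adjusted p = 0.0690) for the Rag1-sufficient gate and -4.16 ± 0.61 (adjusted p = 0.0532) for Rag1 loss in GFP- cells. In Rag1-sufficient mice it read 99.2 and 463 in GFP+ and 1398 and 3798 in GFP- samples. In Rag1-/- mice it read 113 and 148 in GFP+ and 158, 119 and 112 in GFP- samples. The keratinocyte marker sums of the Rag1-sufficient arrays in this order were 1049 and 1006, then 1227 and 2495 units. Those of the Rag1-/- arrays were 634 and 693, then 657, 1110 and 747 units. The part of the keratinocyte markers in the Scd1 difference was not tested. For the gate in Rag1-/- mice the smallest p values of the lipid list were those of Dgat2, an enzyme of triglyceride synthesis, at -0.61 ± 0.17 (adjusted p = 0.689), and of the lipid droplet protein Plin2 at -0.44 ± 0.21 (adjusted p = 0.689). Dgat2 at 0.58 ± 0.18 (adjusted p = 0.506) and Fabp5 at -0.44 ± 0.26 (adjusted p = 0.822) led for Rag1 loss in GFP+ cells. Dgat2 at -0.69 ± 0.12 (adjusted p = 0.0852) and Plin2 at -0.72 ± 0.16 (adjusted p = 0.170) led for the averaged gate, Pdk4 at -0.64 ± 0.11 (adjusted p = 0.0770) and Scd1 at -2.44 ± 0.45 (adjusted p = 0.0896) for averaged Rag1 loss, and Pdk4 at 1.17 ± 0.22 (adjusted p = 0.146) and Scd1 at 3.43 ± 0.91 (adjusted p = 0.252) for the interaction. In these 5 comparisons none of the 14 passed in the limma fit, with an unadjusted p under 0.05 for 1 (against 6.29% of all sets), 1 (against 6.81% of all sets), 6 (against 7.36% of all sets), 3 (against 9.83% of all sets) and 3 (against 13.6% of all sets).

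For Zbtb16, Pparg and Gata3, the members whose group means spanned the widest ranges, the genes with the most similar course were found among 14406 named probe sets. Likeness was the root mean square difference of log2 values, each centred on its own mean, over the 9 arrays, which share the array and its scaling. Closest to Zbtb16 were Sidt1 at 0.048, Trdn at 0.098 and the growth regulator Myc at 0.10, where the root mean square deviation of Zbtb16 from its own mean was 0.26. Sidt1 read 92.7 and 99.8 in Rag1-sufficient GFP+, 113 and 120.0 in Rag1-sufficient GFP-, 86.9 and 82.2 in Rag1-/- GFP+ and 77.6, 67.8 and 73.3 in Rag1-/- GFP- samples. Closest to Pparg were Ermard at 0.11, the kinase gene Nuak2 at 0.13 and Ppp1r12c, a myosin phosphatase subunit, at 0.13, against 0.25 for Pparg itself. Closest to Gata3 were Il18rap, the accessory chain of the interleukin-18 receptor, at 0.066, the nuclear envelope gene Syne1 at 0.10 and the G protein subunit Gnaq at 0.12, against 0.27 for Gata3. Il18rap read 372 and 459 in Rag1-sufficient GFP+, 655 and 656 in Rag1-sufficient GFP-, 641 and 496 in Rag1-/- GFP+ and 627, 541 and 456 in Rag1-/- GFP- samples, with the higher value of the Rag1-/- GFP+ pair in replicate 1, as for Gata3.

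**Figure D4:**
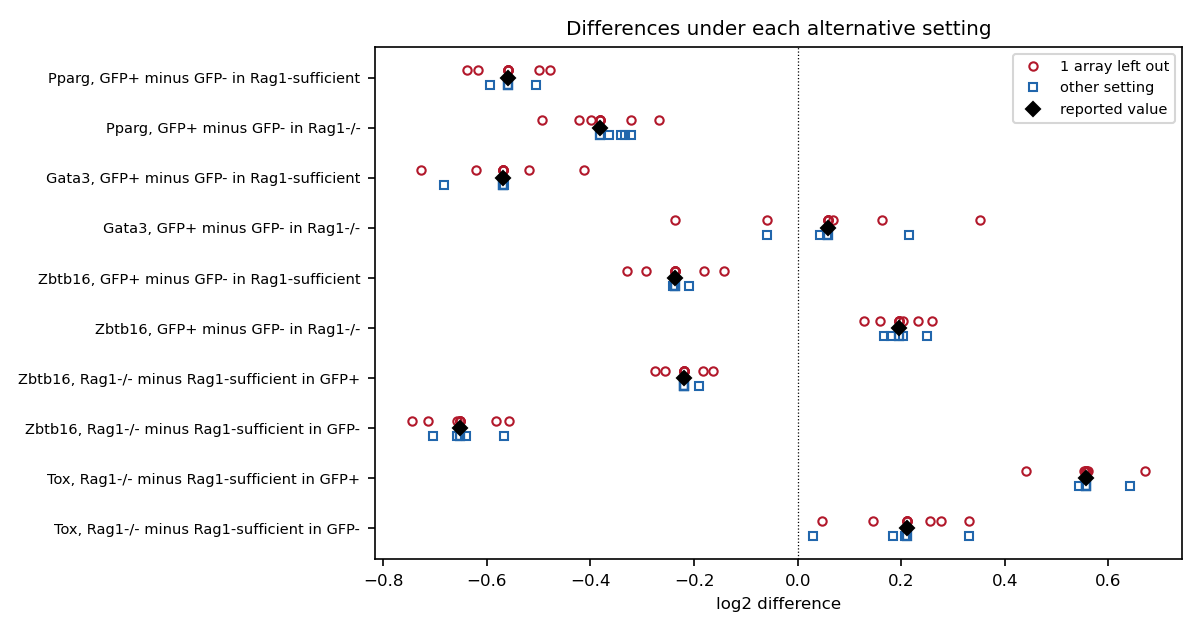
Log2 differences (x axis) of Pparg, Gata3, Zbtb16 and Tox as reported (diamonds), with 1 array left out (circles) and under the other settings (squares). The Pparg, Zbtb16 and Tox differences drawn kept their sign under every alternative shown, and the Gata3 gate difference in Rag1-/- mice ran from -0.24 to 0.35 with 1 array left out.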

How the data were processed

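Per the labels, RNA of 9 sorted samples was hybridised as biotinylated single-stranded DNA. The authors deposited 1 linear intensity per probe set and array, with medians near a common scale. MAS5 appears, with no role, in the submitters' processing notes, and a normalization or build is not given in the sources used here. Probe sets were named through the platform annotation (21425 with 1 symbol, 1399 with several, 2098 with none), with current symbols by gene identifier from GRCm38.p6. Where a list gene had several probe sets the brightest stood for it.

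Intensities were transformed as log2(value + 1), which understates differences of dim genes, and the 30% of sets with the lowest mean (below 41.8) were left out. One mean per group was fitted to all 9 arrays with limma 3.58.1 in R 4.3.3 (lmFit, eBayes with an intensity trend, 5 residual degrees of freedom). Tests were two-sided, with Benjamini-Hochberg adjustment over 17445 sets and a threshold of 0.05. The fit was also run on simulated data with planted differences larger than any found for a member. That run does not measure the power to detect differences of the members' size. The number of arrays limits the precision.

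The members and gene lists were chosen with earlier results of these data known. All members were named. Of the other lists those past the threshold and the 4 (transcription factors) or 2 (other lists) with the smallest p per comparison were named, and for the 3 members with the widest range the 3 most similar genes. Gata2 and Kit are in 2 lists each, as is Plin1. Alternatives were another pseudocount, filters, quantile normalization, array weights, no trend, a replicate block, fewer groups and each array left out. No probe set stands for a second reading of any member.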

Additional observations from a re-analysis of the deposited data

How the results depend on the processing

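The count of members past the threshold was 0 in all 7 comparisons and stayed 0 under every alternative run, with these exceptions. With array weights it was 2 for the Rag1-sufficient gate (Gata3 and Pparg) and 1 for Rag1 loss in GFP- cells (Zbtb16), and with 1 array left out it ranged from 0 to 1 in the latter comparison. Of 486 values of single members under other settings and 567 with 1 array left out, 464 and 530 kept direction and side of the threshold, 3 and 1 passed it, and 19 and 36 changed sign. All sign changes concerned differences that passed no threshold. The cause was not tested.

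Under quantile normalization the changed values were -0.19 for Id2 and -0.034 for Nfil3 (Rag1-sufficient gate), 0.011 for Id2, 0.065 for Ets1 and 0.13 for Nfil3 (Rag1-/- gate), and 0.099 for Id2 (Rag1 loss, GFP+). They were -0.12 for Bcl11b, -0.16 for Ets1 and -0.024 for Nfil3 (Rag1 loss, GFP-), -0.010 for Gata3 and -0.020 for Ets1 (averaged Rag1 loss), and 0.20 for Id2, 0.29 for Ets1 and 0.17 for Nfil3 (interaction). Array weights gave -0.089 for Bcl11b (Rag1-/- gate) and 0.0063 for Zbtb16 (averaged gate).

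With the replicate number as a block the Rag1-/- gate differences were -0.059 for Gata3, -0.10 for Bcl11b and -0.052 for Tox, and 0 members passed in any comparison. The labels tie no number to a shared animal or day, so the numbers were not taken as pairs. Deviations of same-numbered arrays correlated between -0.51 and 0.24 over all groups. Between GFP+ and GFP- arrays of 1 genotype they correlated at 0.085 (Rag1-sufficient), and at 0.029 and -0.24 (Rag1-/-, replicates 1 and 2). In groups of 2 arrays the deviations mirror each other, so these values cannot decide whether arrays were paired. Over the other settings, the counts of all sets past the threshold were 73 to 1293 for the Rag1-sufficient gate, 0 for the Rag1-/- gate, 0 to 46 for Rag1 loss in GFP+ cells, 6 to 1166 in GFP- cells, 6 to 41 for the averaged gate, 5 to 64 for averaged Rag1 loss and 0 to 31 for the interaction, the highest with array weights except for Rag1 loss in GFP+ cells and the Rag1-/- gate. With 1 array left out they were 3 to 334, 0 to 7, 1 to 136, 1 to 117, 0 to 135, 2 to 60 and 0 to 494 in the same order. The block took the averaged-gate count over all sets from 37 to 6, that of the Rag1-sufficient gate from 139 to 73, and those of Rag1 loss from 43 to 2 in GFP+, from 25 to 6 in GFP- cells and from 14 to 9 averaged. For Rag1 loss in GFP+ cells, where this correlation was -0.11, the crossed pairing, added after seeing the data, gave 0 members and 2 of all sets.

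With 1 array left out the ranges that crossed 0 were, for Id2, -0.0071 to 0.0075 (Rag1-sufficient gate), -0.15 to 0.079 (Rag1-/- gate), -0.16 to 0.074 and -0.020 to 0.013 (Rag1 loss in GFP+ and GFP-), -0.077 to 0.040 and -0.082 to 0.034 (averages) and -0.15 to 0.079 (interaction). For Bcl11b they were -0.32 to 0.0081, -0.10 to 0.16 and -0.15 to 0.014 (both gates and their average) and -0.095 to 0.17 (Rag1 loss, GFP-). For Ets1 they were -0.023 to 0.044 and -0.0010 to 0.063 (Rag1 loss) and -0.059 to 0.011 (interaction). For Gata3 they were -0.24 to 0.35 (Rag1-/- gate) and -0.085 to 0.21 (averaged Rag1 loss), for Nfil3 -0.078 to 0.047 (Rag1-/- gate) and -0.035 to 0.090 (Rag1 loss, GFP+), and for Rora -0.089 to 0.058 (averaged gate) and -0.11 to 0.19 (Rag1 loss, GFP+). They were -0.17 to 0.054 for Pparg (Rag1 loss, GFP+), -0.052 to 0.23 for Tox (Rag1-/- gate) and -0.067 to 0.027 for Zbtb16 (averaged gate). Leaving out an array of a group of 2 leaves a lone array, assumed to vary like the other groups. Another probe set per member could not be tried, since each has 1.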
